A study of Homo sapiens with 6 samples.

Results

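The Mediator complex genes measured here were 32 of the 18656 genes that the arrays reported in AGS, an established human gastric adenocarcinoma cell line. They were chosen by name: every gene whose symbol is MED followed by a digit, with CDK8, CDK19 and CCNC. Of these, 31 carried that symbol in the platform annotation, and CDK19 was listed under its older name, CDC2L6, and was included through the RefSeq synonym table. MED6, a head subunit, was not analysed here. The rule used no expression value, but the group was proposed with results of the same arrays in view, so the differences between the groups of arrays are given as descriptions of these arrays and nothing is supported with them.

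Control cells received non-targeting control RNA, and the other cells received an inhibitor of miR-25-3p, in both cases by transfection with the lipid reagent Oligofectamine. All cells were transfected again after 24 h and harvested 48 h after the first transfection. Each group has 3 arrays, which the labels call biological replicates without saying more about how the cultures were kept apart, and all came from 1 cell line. The mature microRNA was not measured, so its inhibition in these cells was not checked. Values are log2 expression on the Affymetrix Human Gene 1.0 ST array, and every difference below is the inhibitor mean minus the control mean on that log2 scale. The array medians lay between 6.02 and 6.07. Control replicate 1 was the least like the others: its correlations with them across genes averaged 0.9915, where the other arrays had averages of 0.9933 to 0.9938. The keratins KRT8, KRT18 and KRT19, EPCAM, CLDN4 and CDH17, which mark epithelial cells, averaged 10.09 in control arrays and 10.13 in inhibitor arrays. Markers of fibroblasts averaged 4.23 and 4.27, and those of endothelium 3.68 and 3.57. Markers of leukocytes averaged 5.05 and 5.16, with LYZ, which gastric cells can also make, at 8.84 and 8.79, and their part in any value below was not tested. Single markers moved more than these averages. In control and inhibitor arrays the leukocyte marker CD14 averaged 4.25 and 4.71, and the endothelial marker PECAM1 3.61 and 3.15.

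The Mediator is a large assembly that carries signals from DNA-bound transcription factors to RNA polymerase II at promoters and enhancers. Its head and middle modules contact the polymerase, the tail module receives most activators, and MED14 runs through the complex as a scaffold. A separable kinase module, built from cyclin C, CDK8 or CDK19, MED12 or MED12L, and MED13 or MED13L, docks on the core and blocks its contact with the polymerase while phosphorylating transcription factors. MicroRNAs of the miR-25 family pair with messages through their seed, so the sequence that the inhibitor was designed against is shown with 3 relatives that share it, as listed by RefSeq for GRCh38.p14. Capitals mark the seed, bases 2 to 8 counted from the 5′ end.
hsa-miR-25-3p: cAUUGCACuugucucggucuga
hsa-miR-92a-3p: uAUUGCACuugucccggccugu
hsa-miR-92b-3p: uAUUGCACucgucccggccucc
hsa-miR-32-5p: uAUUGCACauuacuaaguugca
The 4 mature forms have the same seed, AUUGCAC, and differ mainly in their 3′ part. The bases of hsa-miR-25-3p lie on chromosome 7, minus strand, at 100093571 to 100093592. Seed sites in Mediator messages were not examined here.

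No Mediator gene passed the threshold, an adjusted p of 0.05 in limma with Benjamini-Hochberg adjustment over all 18656 genes. The count was 0 of 32 members, against 0 of all genes (0%), and the smallest adjusted p among members was 0.788. At an unadjusted p under 0.05 in limma there were 2 members, MED15 and MED26, both lower in inhibitor arrays, and none higher, where 6.12% of all genes met that rule, 3.16% lower and 2.95% higher. The inhibitor arrays lay wholly below the control arrays for 4 members, MED11, MED15, MED16 and MED26, and wholly above them for 0. That is 12.5% of the members, close to the 12.9% of all genes whose groups did not overlap in either direction (7.68% lower and 5.2% higher). Of the 32 differences, 21 were negative, or 65.6%, where 49.5% of all genes had a negative difference. The median difference was -0.046 over members and 0.0021 over all genes. For 28 members (87.5%) the difference was smaller than 0.2 in size, as it was for 84.8% of all genes. The 95% intervals of single members, which are not adjusted for the number of genes, included 0 for 30 of 32 and reached from -0.55 to 0.53 at their widest. In these bulk samples, fewer cells that express a gene and less RNA per cell cannot be told apart.

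**Figure D1:**
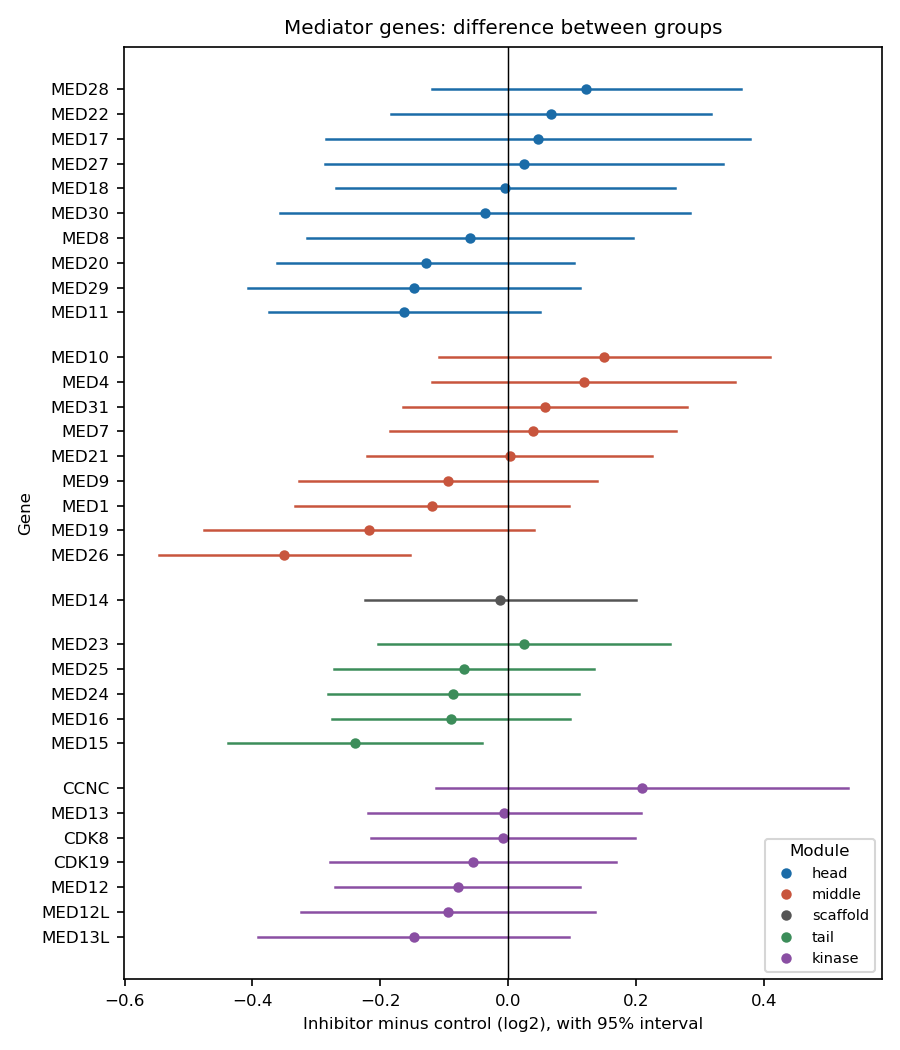
Each point is the difference between the mean of 3 inhibitor arrays and the mean of 3 control arrays on the log2 scale, and each line is its 95% interval from limma, for 32 Mediator genes grouped by module. The intervals of MED15 and MED26 lie below 0, the other 30 include 0, and CCNC has the highest estimate, 0.21.

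The kinase module had 7 measured members, of which 6 had a negative difference and 1, CCNC, a positive difference, with a median of -0.055. None of the 7 had groups that did not overlap. Over all genes 49.5% had a negative difference and 12.9% had groups that did not overlap. With 7 members, the module is too small to set against those shares. CDK8, the kinase itself, was at 9.82, 9.71 and 9.90 in control arrays and 9.84, 9.74 and 9.83 in inhibitor arrays. The groups overlapped throughout, and the difference was -0.0083 (SE 0.091), with a 95% interval of -0.21 to 0.20. CDK19, its paralog, was at 6.72, 6.51 and 6.73 in control arrays and 6.55, 6.56 and 6.69 in inhibitor arrays. Control replicate 2 was the lowest of the 6 arrays, and the difference was -0.055 (SE 0.098). Of the 18 CDK19 probe sets, 9 were positive and 9 negative.

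CCNC, which encodes cyclin C, the partner of both kinases, had the highest difference of all members. It was at 8.97, 9.44 and 9.43 in control arrays and 9.51, 9.35 and 9.60 in inhibitor arrays. Control replicate 1 stood alone below the other 5 arrays, and inhibitor replicate 2 lay below control replicates 2 and 3. The means were 9.28 ± 0.27 and 9.49 ± 0.12 (SD, n = 3 each), a difference of 0.21 (SE 0.14; adjusted p 0.808 in limma). Without control replicate 1 the difference was 0.053. A positive difference was seen in 13 of 15 CCNC probe sets, 5 of them with groups that did not overlap. Here and for the other members, probe sets of a gene were read on the same arrays and are not independent. The shares over all probe sets were not computed, so such counts are descriptions only.

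MED12, which activates the kinase through cyclin C, was at 7.09, 7.04 and 7.09 in control arrays and 7.05, 6.93 and 6.998 in inhibitor arrays. Inhibitor replicate 1 reached above control replicate 2, so the groups just overlapped, and the difference was -0.079 (SE 0.084). With the median of the MED12 probe sets it was -0.28, and with the brightest it was -0.05. Its 48 probe sets, 35 negative and 13 positive, ranged from -0.96 to 1.79, and the highest was a dim probe set at 2.80, 3.83 and 2.30 in control arrays and 5.03, 4.45 and 4.81 in inhibitor arrays. MED12L, the MED12 paralog, was at 5.24, 5.36 and 5.49 in control arrays and 5.31, 5.16 and 5.34 in inhibitor arrays. The difference was -0.094 (SE 0.10), and it was 0.15 with the brightest of its 46 probe sets. MED13, which fastens the kinase module to the core, was at 9.27, 9.12 and 9.31 in control arrays and 9.20, 9.17 and 9.32 in inhibitor arrays, with a difference of -0.0060 (SE 0.094). The lowest and the highest array of MED13 were in different groups, and its sign turned in 6 of 16 alternative settings. Several of the 16, such as the replicate block and the variance models, could not move the difference.

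MED13L, the MED13 paralog, was at 8.62, 8.30 and 8.57 in control arrays and 8.36, 8.28 and 8.40 in inhibitor arrays. Control replicates 1 and 3 lay above all inhibitor arrays, while control replicate 2 lay among them. The difference was -0.15 (SE 0.11; adjusted p 0.816 in limma), with 22 of 31 probe sets negative, and it was 0.057 with the brightest probe set. Without control replicate 2 the difference was -0.25, and without control replicate 1 it was -0.087. FBXW7, the ubiquitin ligase subunit that recognises MED13 and MED13L for degradation, was at 6.76 ± 0.046 in control and 6.76 ± 0.047 in inhibitor arrays (SD, n = 3 each), a difference of -0.00067 (SE 0.084). Within arrays, the difference of MED13 exceeded that of MED13L by 0.14, that of CDK8 exceeded that of CDK19 by 0.047 and that of MED12 exceeded that of MED12L by 0.015. These gaps between paralogs are descriptions with no test.

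**Figure D2:**
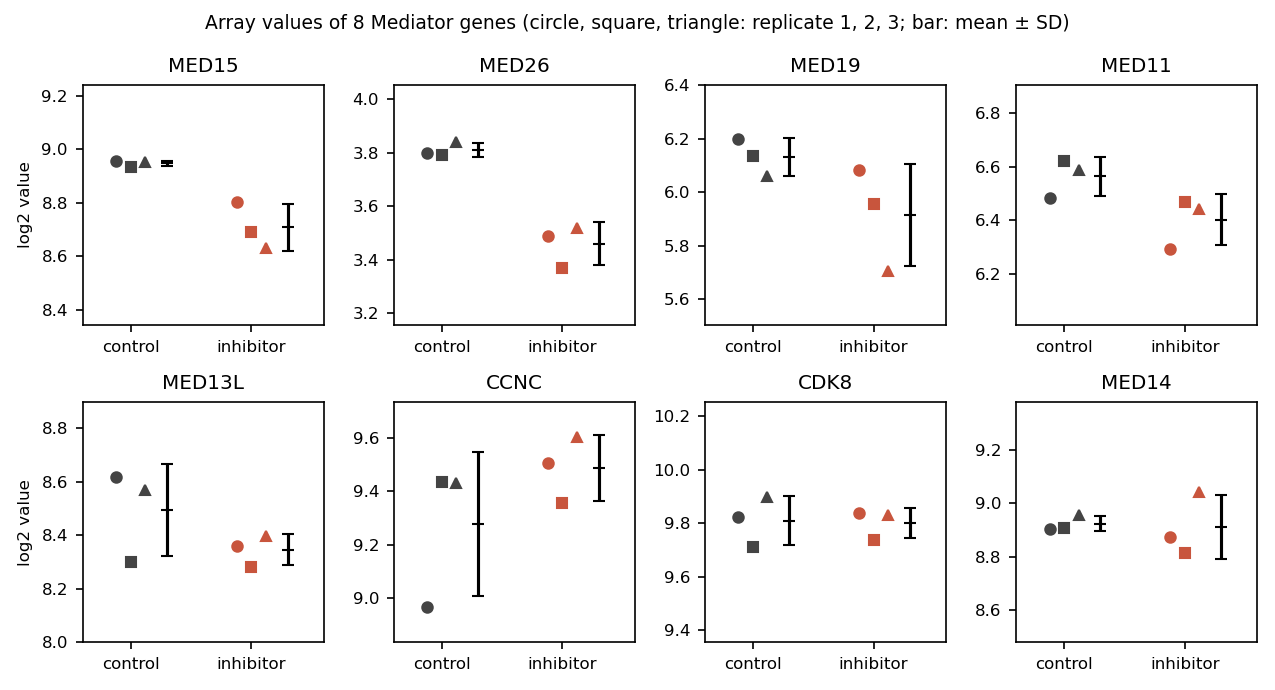
Log2 values of 8 Mediator genes in each of the 6 arrays, with a vertical span of 0.9 log2 units in every panel; circles, squares and triangles are replicates 1, 2 and 3, and the bars are the mean ± SD of 3 arrays. For MED15, MED26 and MED11 the inhibitor arrays lie below all control arrays, for CCNC control replicate 1 stands alone at 8.97, and for CDK8 and MED14 the groups overlap.

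The tail module had 5 measured members, with a negative difference in 4, a median of -0.086 and 2 members, MED15 and MED16, whose groups did not overlap, both lower. Over all genes 49.5% had a negative difference and 7.68% had inhibitor arrays wholly below the controls, and 5 members are too few to set against those shares. MED15, which receives SREBP and SMAD activators, was at 8.96, 8.94 and 8.95 in control arrays and 8.80, 8.69 and 8.63 in inhibitor arrays. The control arrays were almost level and every inhibitor array lay below them. The means were 8.95 ± 0.011 and 8.71 ± 0.088 (SD, n = 3 each), a difference of -0.24 (SE 0.087; unadjusted p 0.0235 and adjusted p 0.788 in limma). Of its 18 probe sets, 13 were negative, 5 of them with groups that did not overlap, and 5 were positive. As for CCNC, these probe sets share the same arrays, and no share over all probe sets stands beside the counts. A single probe set had a difference of -1.58, at 9.42, 9.63 and 9.92 in control arrays and 9.30, 8.21 and 6.71 in inhibitor arrays. Without that probe set, left out after its value was seen, the difference was -0.16 over 17 probe sets and the groups still did not overlap. With the median of the probe sets the difference was -0.46, and with the brightest probe set alone it was 0.23.

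MED16, which assembles with MED23 and MED24 in the tail, was at 7.03, 7.12 and 7.08 in control arrays and 7.01, 6.99 and 6.97 in inhibitor arrays. The groups did not overlap, but they were separated by less than 0.1, and the difference was -0.090 (SE 0.082). MED24 had a difference of -0.086 (SE 0.086). MED25, the target of viral and stress-response activators, had -0.069 (SE 0.089). MED23, which binds the activators E1A and ELK1, was at 7.36, 7.64 and 7.58 in control arrays and 7.59, 7.56 and 7.50 in inhibitor arrays. Its lowest array was control replicate 1, its difference was 0.025 (SE 0.10), and without that array it was -0.058. With the median of the MED23 probe sets the difference was 0.28, and with the brightest it was -0.29. Later structures of the mammalian complex place MED27 to MED30 beside the tail, and with these 4 genes counted there the tail median was -0.069 over 9 members.

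**Figure D3:**
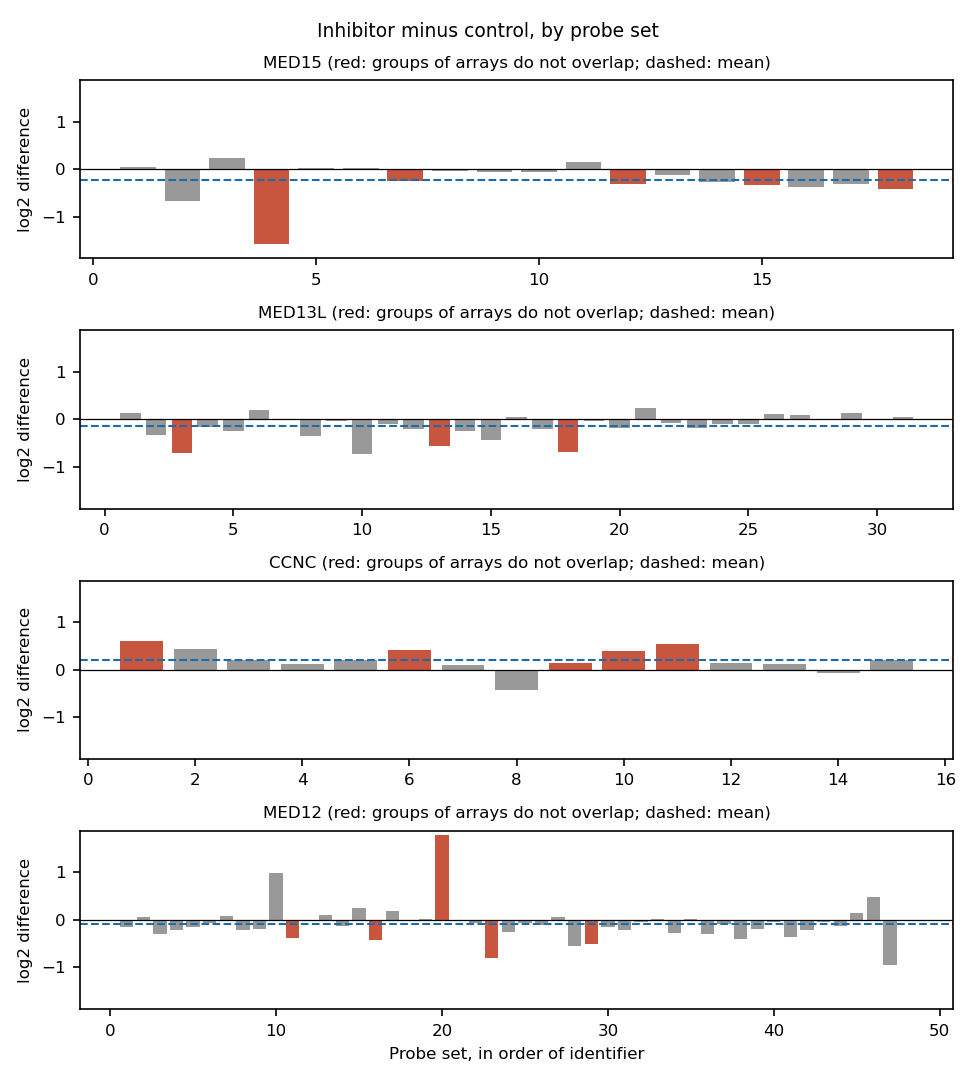
Differences between inhibitor and control means on the log2 scale for each probe set of MED15, MED13L, CCNC and MED12, in order of probe set identifier; red bars are probe sets whose groups of arrays do not overlap and the dashed line is the mean over probe sets. The MED15 mean of -0.24 includes a probe set at -1.58, and MED12 holds a probe set at 1.79 among bars that are mostly below 0.

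MED14, the scaffold that joins head, middle and tail, was at 8.90, 8.91 and 8.95 in control arrays and 8.87, 8.82 and 9.04 in inhibitor arrays. The inhibitor arrays lay on both sides of the controls. The difference was -0.012 (SE 0.093), with a 95% interval of -0.22 to 0.20, and of its 34 probe sets 21 were positive, 12 negative and 1 at 0.

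The middle module had 9 measured members, with 5 positive and 4 negative differences and a median of 0.0022. MED26, which recruits elongation factors to the polymerase, had the lowest difference of all members. It was at 3.80, 3.79 and 3.84 in control arrays and 3.49, 3.37 and 3.52 in inhibitor arrays. The groups did not overlap, and the difference was -0.35 (SE 0.086; unadjusted p 0.00315 and adjusted p 0.788 in limma). This value rests on 1 dim probe set, far below the array medians. Another 4 probe sets are assigned to MED26 and CALR3 together and were left out by the rule. They averaged 7.57, 7.35 and 7.65 in control arrays and 7.45, 7.45 and 7.63 in inhibitor arrays, with overlapping groups and a difference of -0.013. With all 5 probe sets, an average chosen after the values were seen, the MED26 difference was -0.081 and the groups overlapped.

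MED19, a middle subunit at the hook of the complex, was at 6.20, 6.14 and 6.06 in control arrays and 6.08, 5.96 and 5.71 in inhibitor arrays. Inhibitor replicate 1 lay among the controls and inhibitor replicate 3 stood lowest. The difference was -0.22 (SE 0.11), -0.11 without inhibitor replicate 3, 0.12 with the median of its 9 probe sets and 0.13 with the brightest. MED10, also part of the hook, was at 7.35, 7.19 and 7.54 in control arrays and 7.59, 7.39 and 7.55 in inhibitor arrays, a difference of 0.15 (SE 0.11) with overlapping groups, and without control replicate 2 it was 0.064. A single one of its 5 probe sets had a difference of 0.72, with overlapping groups, and the others ranged from -0.070 to 0.077. MED4, a core subunit of the middle module, was at 8.55, 8.52 and 8.49 in control arrays and 8.71, 8.45 and 8.75 in inhibitor arrays. Inhibitor replicates 1 and 3 lay above the controls and inhibitor replicate 2 below them, and the difference was 0.12 (SE 0.10), or -0.20 with the brightest probe set.

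The other 5 middle genes overlapped between groups and ranged from -0.12 to 0.058. Among them MED1, the docking subunit for nuclear receptors, was at 8.83 ± 0.12 in control and 8.71 ± 0.022 in inhibitor arrays (SD, n = 3 each). Its difference of -0.12 (SE 0.094) was 0.15 with the median of its 19 probe sets and -0.62 with the brightest. Of the 19, 9 were positive and 10 negative. The lowest, at -1.72, was at 7.35, 7.51 and 7.63 in control arrays and 7.88, 5.29 and 4.15 in inhibitor arrays. MED9 had -0.094. MED7 and MED21, which form the hinge of the middle module, had 0.038 and 0.0022, and MED31 had 0.058. The 4 probe sets that MED31 shares with TXNDC17 were left out by the rule. With them, an average over 7 probe sets made after the values were seen, the MED31 difference was -0.26. The groups met at 4.496, the value of both control replicate 1 and inhibitor replicate 3, and were otherwise apart. The average over 7 probe sets includes a dim shared probe set at -1.37. Its values were 2.47, 3.50 and 1.55 in control arrays and 1.07, 1.25 and 1.09 in inhibitor arrays. The other shared probe sets ranged from -0.46 to -0.0067, and the brightest of them had -0.17.

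The head module had 10 measured members, with 4 positive and 6 negative differences and a median of -0.021. MED11, which pairs with MED22 in the head, was at 6.48, 6.62 and 6.59 in control arrays and 6.29, 6.47 and 6.44 in inhibitor arrays. The highest inhibitor array lay just below the lowest control array, and the difference was -0.16 (SE 0.093), with 3 of 3 probe sets negative. The lowest, at -0.33, was a dim probe set at 4.80, 4.87 and 4.87 in control arrays and 4.59, 4.67 and 4.30 in inhibitor arrays. The others had -0.12 and -0.037, with overlapping groups. With the median of the probe sets the MED11 difference was -0.037. MED29 was at 6.99, 7.15 and 7.26 in control arrays and 7.14, 6.83 and 6.98 in inhibitor arrays, a difference of -0.15 (SE 0.11) with overlapping groups. MED28 was at 8.07, 8.16 and 8.26 in control arrays and 8.29, 8.14 and 8.43 in inhibitor arrays, a difference of 0.12 (SE 0.11). The groups of MED28 overlapped, with inhibitor replicate 2 among the controls.

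MED22, the partner of MED11, was at 5.82, 6.05 and 6.19 in control arrays and 6.11, 6.04 and 6.11 in inhibitor arrays. Its inhibitor arrays lay within the range of the controls, and its difference was 0.066 (SE 0.11), against -0.16 for MED11. This contrast depended on the probe set summary. With the median of the probe sets MED22 had 0.165 and MED11 -0.037, and with the brightest probe set they had -0.32 and -0.12. MED17, the subunit around which the head is built, had 0.047 (SE 0.15) and -0.12 without control replicate 1, where it was at 5.39 against 5.83 and 5.99 in the other controls. MED18 and MED20, which form the movable jaw of the head, had -0.0044 and -0.13, and MED8, to which that jaw is attached, had -0.060. The MED20 mean includes a dim probe set at -1.02, and the difference was 0.083 on the brightest probe set, -0.047 without control replicate 2 and -0.0014 once the dimmest 30% of probe sets were removed. MED18 had 0.25 with the median of its probe sets. MED30 had -0.037. MED27 had 0.024 on 3 probe sets, 1 of which has an identifier far from the others, and -0.012 without it.

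The spread between arrays of a group was as large as most of the differences: the median size of a member's difference was 0.083, and the median residual SD between arrays of a group was 0.11 for members and 0.13 for all genes. Across the 32 members, the median deviation from each gene's own mean over the 6 arrays was -0.029, 0.034 and 0.080 in control replicates 1, 2 and 3 and 0.0026, -0.070 and 0.0067 in inhibitor replicates 1, 2 and 3. Control replicate 3 was thus the highest and inhibitor replicate 2 the lowest. Over all genes the same deviations stayed between -0.013 and 0.016. Inhibitor replicate 2 was the lowest of its group for 20 of 32 members, or 62.5%, against 34.8% of all genes. Control replicate 1 was the lowest of its group for 17 of 32 members, or 53.1%, against 42.4% of all genes. It was the lowest control for 7 of 10 head and 5 of 9 middle genes, and for 2 of 5 tail and 2 of 7 kinase genes.

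**Figure D4:**
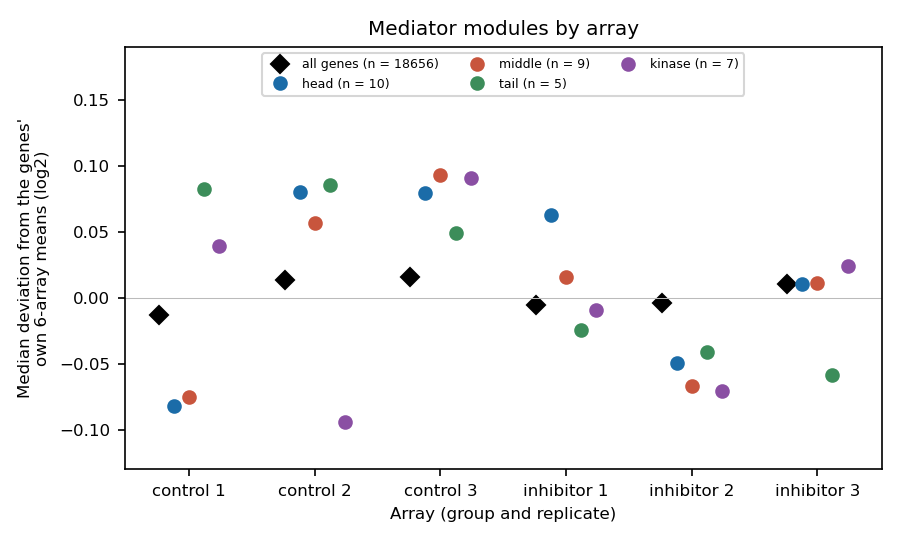
Median deviation of the genes of each module, and of all 18656 genes, from each gene's own mean over the 6 arrays, on the log2 scale, by array. Head and middle genes are low in control replicate 1, kinase module genes are low in control replicate 2, and all 4 modules lie below 0 in inhibitor replicate 2.

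The median difference over members was -0.027 without inhibitor replicate 2, -0.039 without control replicate 3 and -0.062 without control replicate 1. Leaving out control replicate 1 turned the sign of 8 of the 32 members, MED13 and MED18 to positive and MED7, MED17, MED21, MED22, MED23 and MED27 to negative.

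**Figure D5:**
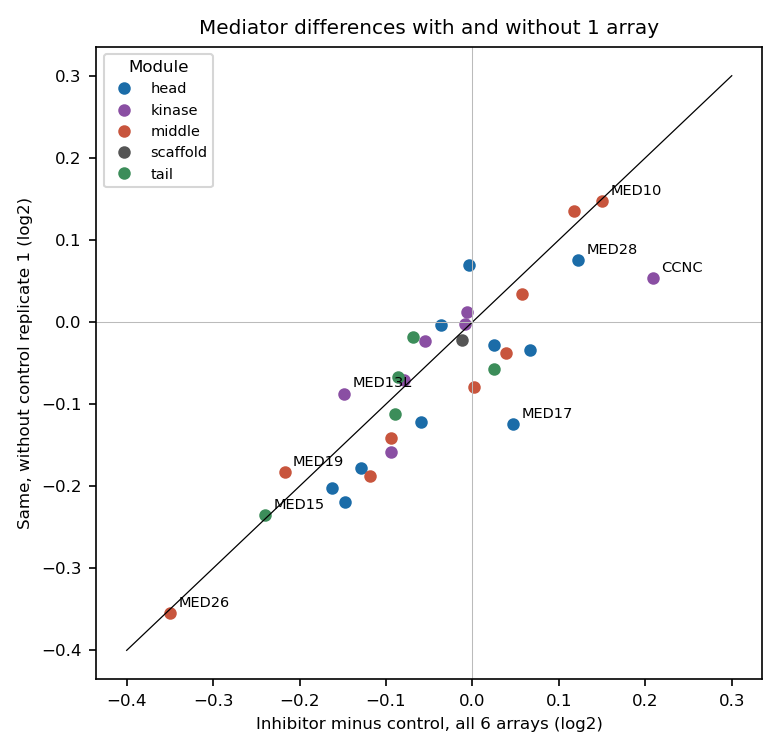
The log2 difference of each of the 32 members from all 6 arrays on the horizontal axis and without control replicate 1 on the vertical axis, with the line of equal values. MED15 and MED26 stay near the line, CCNC goes from 0.21 to 0.053 and MED17 from 0.047 to -0.12.

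The machinery that the Mediator works with gave 0 called genes of 78 in limma, at an adjusted p of 0.05. At that threshold 0 of all 18656 genes (0%) were called, so the count says nothing particular about these lists. RNA polymerase II subunits had 4 positive and 8 negative differences among 12, with a median of -0.012, from -0.17 for POLR2E to 0.18 for POLR2L, which had -0.0067 and -0.077 with the brightest probe set. General transcription factors, which place the polymerase at the start site, had 13 positive and 4 negative among 17, with a median of 0.031. They ran from -0.11 for ERCC2, a helicase of TFIIH, to 0.46 (SE 0.22) for GTF2H2. That gene has a near-identical copy, and whether its probe sets also read the copy was not tested. The TAF subunits of TFIID had 6 positive and 7 negative among 13, with a median of -0.060, from -0.22 for TAF8 to 0.24 for TAF13. TAF13 had 0.0017 with the median of its probe sets and -0.12 with the brightest. Elongation factors had 8 positive and 18 negative among 26, with a median of -0.063. LARP7 and HEXIM1, which hold the elongation kinase P-TEFb inactive on the 7SK RNA, had the highest and the lowest difference of this list, 0.33 (SE 0.099) and -0.22 (SE 0.096), each with groups that did not overlap and each with the opposite sign on its brightest probe set (-0.14 and 0.030).

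Cohesin and its loader, which join enhancers bound by Mediator to promoters, had 7 positive and 3 negative differences among 10, with a median of 0.098. NIPBL, the loader, was at 8.44, 8.44 and 8.53 in control arrays and 8.75, 8.60 and 8.79 in inhibitor arrays. All inhibitor arrays lay above all controls, and the difference was 0.24 (SE 0.091; adjusted p 0.788 in limma). WAPL, which releases cohesin, had -0.071 (SE 0.098). Over these 5 lists, the share of genes whose groups did not overlap in either direction was 16.7% for the polymerase, 11.8% for the general factors, 23.1% for the TAFs, 26.9% for elongation and 20.0% for cohesin, against 12.9% of all genes.

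Promoter sequences were found in the RefSeq table (GRCh38.p14) for 25 of the 32 members, as 30 windows from 250 bases before to 50 after a start site. MED8, MED13, MED14, MED21, MED22, MED28 and MED30 had none in the table. The core of the ETS motif, CCGGAAG on either strand, was found in 8 of the 30 windows, or 26.7%, against 10.3% of all 35116 windows and 13.1% of the windows of genes on the array. AAGATGG, the core of the YY1 motif, was in 20.0% of member windows, 5.84% of all windows and 6.05% of those of genes on the array. In the same order, GGGCGG was in 60.0%, 45.0% and 57.3%, CCAAT in 36.7%, 34.6% and 34.7% and TATAAA in 6.67%, 11.5% and 9.14%. All 5 motifs were searched on both strands, and matches of different motifs could overlap. The median window held 21.5 CG pairs for members, 14.0 over all windows and 21.0 for genes on the array. The ETS core is shown in capitals, on the strand of the gene, in 27-base stretches upstream of 3 members: MED15 because it had the largest difference of the tail, and MED17 and MED18 as head genes with small differences.
MED15: ccctccttcaCTTCCGGctcggccgag
MED17: ccgtgattcaCCGGAAGcgctctaggg
MED18: cggcttccgaCCGGAAGtgagaagagg
The MED15 stretch is on chromosome 22 at 20507553 to 20507579, plus strand, and has the core on the opposite strand. The MED17 stretch is on chromosome 11 at 93784230 to 93784256 and the MED18 stretch on chromosome 1 at 28329009 to 28329035, both on the plus strand. Genes with this core had differences of either sign, from -0.24 for MED15 to 0.058 for MED31, and a match in these windows is a description of the sequence only.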

How the data were processed

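The deposited values are log2 expression per exon-sized probe set for 6 arrays. Per the submitters' processing notes, the tools were Affymetrix Expression Console with RMA, and Transcriptome Analysis Console, without versions, and the genome build is not given in the sources used here. RMA makes the distributions of arrays alike, which hides any shift common to the majority of genes. Of 257430 probe sets, 224320 name a single gene in the platform annotation, 10159 several and 22951 none. Older symbols were updated through RefSeq (GRCh38.p14; 2533 of 18701). A gene's value was the mean of its single-gene probe sets. Groups were compared with limma 3.58.1 under R 4.3.3 (lmFit, then eBayes) over all 18656 genes, two-sided, with Benjamini-Hochberg adjustment and no filter. The fit was tested on simulated data. The number of arrays limits the precision. Labels do not name separate cultures, so p-values measure only the spread between these samples. Members, modules and lists were chosen with earlier results of these arrays known. Every member is named: the kinase module, MED14 and the members with up to 2 highest and 2 lowest differences of the other modules with all array values, and the highest and lowest gene of each other list. The lists matched 17 of 18 general factors, 26 of 27 elongation factors, 5 of 6 leukocyte markers and every other listed gene except MED6. Alternatives were the replicate block, each array left out, other probe set summaries, filters, normalizations and variance models.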

Additional observations from a re-analysis of the deposited data

How the results depend on the processing

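Under every alternative fit run, limma called 0 Mediator genes; an unadjusted p under 0.05 gave 2 with the reported settings and 1 to 4 under the alternatives, MED26 and MED15 among most of them and all lower in inhibitor arrays. It called 0 of all genes, or 1141 at an unadjusted p under 0.05, except that leaving out arrays gave 0 to 1, the 1 being RGPD4 without control replicate 3. The replicate block gave 0 calls. Deviations of same-numbered arrays correlated at -0.032, -0.04 and 0.169, and those of differently numbered arrays at -0.206 to 0.208. Same numbers were not treated as pairs, but with 3 arrays per group these correlations cannot settle whether same-numbered arrays were handled together. The median difference of members was 0.012 with the brightest probe sets and -0.074 to -0.027 leaving out arrays. Leaving out arrays gave -0.079 to 0.046 for the middle, -0.12 to -0.066 for the tail, -0.078 to 0.0047 for the head and -0.094 to -0.016 for the kinase module. The middle median was 0.12 with the median of probe sets and -0.070 with the brightest, the tail median -0.017, -0.13 and, without the dimmest 30% of probe sets, -0.14, and the kinase median 0.14 with the brightest. The cause was not tested. Signs were kept for 11 of 32 members in every setting run on them. Signs turned for 16 with the brightest probe set, for 5 with the median and for 0 with quantile normalization. The replicate block, the variance models and centring left every difference unchanged and could turn no sign. For centring this is because the array medians average the same in both groups. The filter of dim genes only removed genes, so the share of signs kept says little about those settings. MED26 gave no value without the dimmest 30% of probe sets or genes. Settings for MED15, MED26 and MED31 probe sets, MED27 and CDK19 were chosen after seeing the data.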
